A study of Mus musculus with 2 samples.

Results

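The cytosolic ribosomal proteins are the protein components of the ribosome, and their genes were taken here from GENCODE M21 by symbol. Protein-coding genes named Rpl or Rps plus a digit were taken, with Rplp0, Rplp1, Rplp2 and Rpsa, and without pseudogene symbols and the Rps6k kinases. This gave 86 of 55536 annotated genes, or 86 of 22028 protein-coding ones. They comprise 77 core ribosomal proteins, 46 of the large and 31 of the small subunit, 8 paralogs and Rps19bp1, whose product binds Rps19 and is no ribosomal protein. The paralogs are Rpl3l, Rpl7l1, Rpl10l, Rpl22l1, Rpl36al, Rpl39l, Rps27l and Rps27rt.

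The RNA came from regulatory T cells (Treg cells), CD4 T cells that restrain immune responses, of a male mouse aged 9 weeks. It was polyA-selected and sequenced as 2 libraries that the labels call technical replicates of 1 biosample, so there was 1 group, no treatment and no control. Library 1 totalled 34697128 estimated counts on annotated genes and library 2 totalled 32049199, and every SD below is a technical spread between them. All 6 Treg markers were detected at 108 TPM or more. B cell markers lay at 1.15 to 8.77 TPM and myeloid markers at 0.50 to 14.4 TPM. The 4 hemoglobin genes used as red cell markers lay at 20.9 to 141 TPM, and their part in the levels below was not tested.

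A ribosome holds 1 copy of nearly every core protein, the stalk proteins Rplp1 and Rplp2 excepted. Their messenger RNAs begin with a run of pyrimidines, the terminal oligopyrimidine (TOP) motif, through which mTOR and the RNA-binding protein Larp1 regulate their translation. T cells make many new ribosomes when they are activated and grow. Ribosomal protein messages have also been copied back into the genome very often, and most of these intronless copies are annotated as processed pseudogenes.

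The deposited estimated counts divide each read among all the genes and copies it fits, so the letters that separate a gene from its copies decide what can be measured. Sets of coding sequences from GENCODE M21 transcripts on GRCm38, each 5′ to 3′ and without the stop codon, show 3 degrees of likeness on which results below turn. The first set is Rps27 (chr3:90212522-90213651, minus strand) and its paralogs. Rps27rt, a gene at chr9:114982366-114982739 on the minus strand, was identical to Rps27 at all 252 coding bases, so its letters are those printed for Rps27. Rps27l (chr9:66946086-66949516, plus strand) differed at 60 of 252 bases, which are in capitals.
Rps27: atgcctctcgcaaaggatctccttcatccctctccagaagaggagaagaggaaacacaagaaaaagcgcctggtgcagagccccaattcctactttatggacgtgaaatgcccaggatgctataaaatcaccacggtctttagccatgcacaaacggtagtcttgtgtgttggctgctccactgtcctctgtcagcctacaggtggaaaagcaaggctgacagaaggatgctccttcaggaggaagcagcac
Rps27l: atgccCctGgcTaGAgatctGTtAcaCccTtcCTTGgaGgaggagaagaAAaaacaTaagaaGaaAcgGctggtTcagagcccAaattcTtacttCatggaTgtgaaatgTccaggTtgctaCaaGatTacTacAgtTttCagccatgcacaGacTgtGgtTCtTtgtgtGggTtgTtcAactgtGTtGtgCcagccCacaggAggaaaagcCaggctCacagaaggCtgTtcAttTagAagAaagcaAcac

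The second set is Rps3a1 (chr3:86137940-86142702, minus strand) and the processed pseudogenes Rps3a2 (chr14:88123017-88123808, minus strand) and Rps3a3 (chr13:108670603-108671397, plus strand). Over the coding sequence Rps3a2 differed from Rps3a1 at 4 of 792 bases and Rps3a3 at 8 of 791. Coding bases 519 to 668 are shown, with letters that differ from Rps3a1 in capitals.
Rps3a1: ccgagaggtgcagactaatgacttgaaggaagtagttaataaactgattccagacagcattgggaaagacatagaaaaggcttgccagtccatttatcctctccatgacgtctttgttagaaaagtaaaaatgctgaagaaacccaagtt
Rps3a2: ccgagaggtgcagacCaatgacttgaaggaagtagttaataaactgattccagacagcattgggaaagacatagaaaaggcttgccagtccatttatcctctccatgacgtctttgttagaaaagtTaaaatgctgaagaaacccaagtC
Rps3a3: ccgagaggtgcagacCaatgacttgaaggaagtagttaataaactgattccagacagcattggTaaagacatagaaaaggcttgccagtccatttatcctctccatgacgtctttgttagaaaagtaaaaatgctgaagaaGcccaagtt

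The third set is Rpl5 (chr5:107900502-107909005, plus strand) and Gm15500 (chr7:114705217-114706235, minus strand), a transcribed processed pseudogene. The 2 were identical at all 891 coding bases of Rpl5, of which the first 150 follow for both loci.
Rpl5 and Gm15500: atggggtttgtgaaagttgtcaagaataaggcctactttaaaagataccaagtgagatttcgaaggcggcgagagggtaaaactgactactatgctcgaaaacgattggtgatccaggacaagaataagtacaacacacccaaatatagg

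All 77 core genes were detected, where detection means 1 TPM or more in both libraries, against 10583 of 22028 protein-coding genes (48.0%). TPM is a level corrected for gene length and scaled to the same total in each library. Of all 86 genes 84 were detected, and the other 2 were Rpl10l and Rpl3l. The 86 genes took 7.28% of annotated TPM in library 1 and 8.49% in library 2, a mean of 7.89 ± 0.852% (SD, n = 2 technical libraries, as for every SD below). In bulk RNA the number of cells that express a gene and its RNA per cell cannot be told apart. The core median was 714 ± 76.0 TPM, beside a median of 22.8 ± 0.750 TPM over all detected genes. Large subunit genes had medians of 602 and 696 TPM in libraries 1 and 2, and small subunit genes 717 and 858 TPM.

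Of the large subunit, Rpl32, a protein of its outer surface, had levels of 2630 and 3027 TPM in libraries 1 and 2. Rpl41, the smallest ribosomal protein, stood at 1938 and 2389 TPM. These values lay close to those of Rpl13a (1935 and 2357 TPM) and Rpl37a (1953 and 2265 TPM). The order of these 3 differed between the libraries, so it is not resolved. The stalk genes, whose products recruit translation factors, lay close together. Rplp0 stood at 1444 and 1701 TPM in libraries 1 and 2, Rplp1 at 1205 and 1486 TPM, and Rplp2 at 1167 and 1372 TPM. This order was the same in both libraries, but the values of neighbours in it overlapped.

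Of the small subunit, Rps19, the gene most often mutated in Diamond-Blackfan anemia, was highest at 3893 and 4296 TPM. Rpsa, also known as the laminin receptor, stood at 1143 and 1342 TPM. Rps27a, which encodes ubiquitin fused to a ribosomal protein, stood at 378 and 463 TPM. The 4 X-linked core genes were not alike in level: Rps4x stood at 637 ± 63.5 TPM, Rpl39 at 410 ± 49.6 TPM, Rpl36a at 270 ± 24.9 TPM and Rpl10 at 44.9 ± 2.99 TPM.

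The 5 lowest core genes stood far below the rest. Rpl5, which with Rpl11 can bind and inhibit Mdm2, had 24.9 TPM in library 1 and 23.3 in library 2. Rpl12, a protein of the stalk base, had 39.4 and 36.3 TPM, and Rps12, a small subunit protein, had 40.9 and 35.2 TPM. Rpl10, which joins the large subunit late in its assembly, had 42.8 and 47.0 TPM. Rpl27a had 104 and 119 TPM, and the next lowest, Rpl7a, had 203 and 253 TPM. The SD over core genes of log2(TPM + 1) was 1.39 and 1.44.

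**Figure D1:**
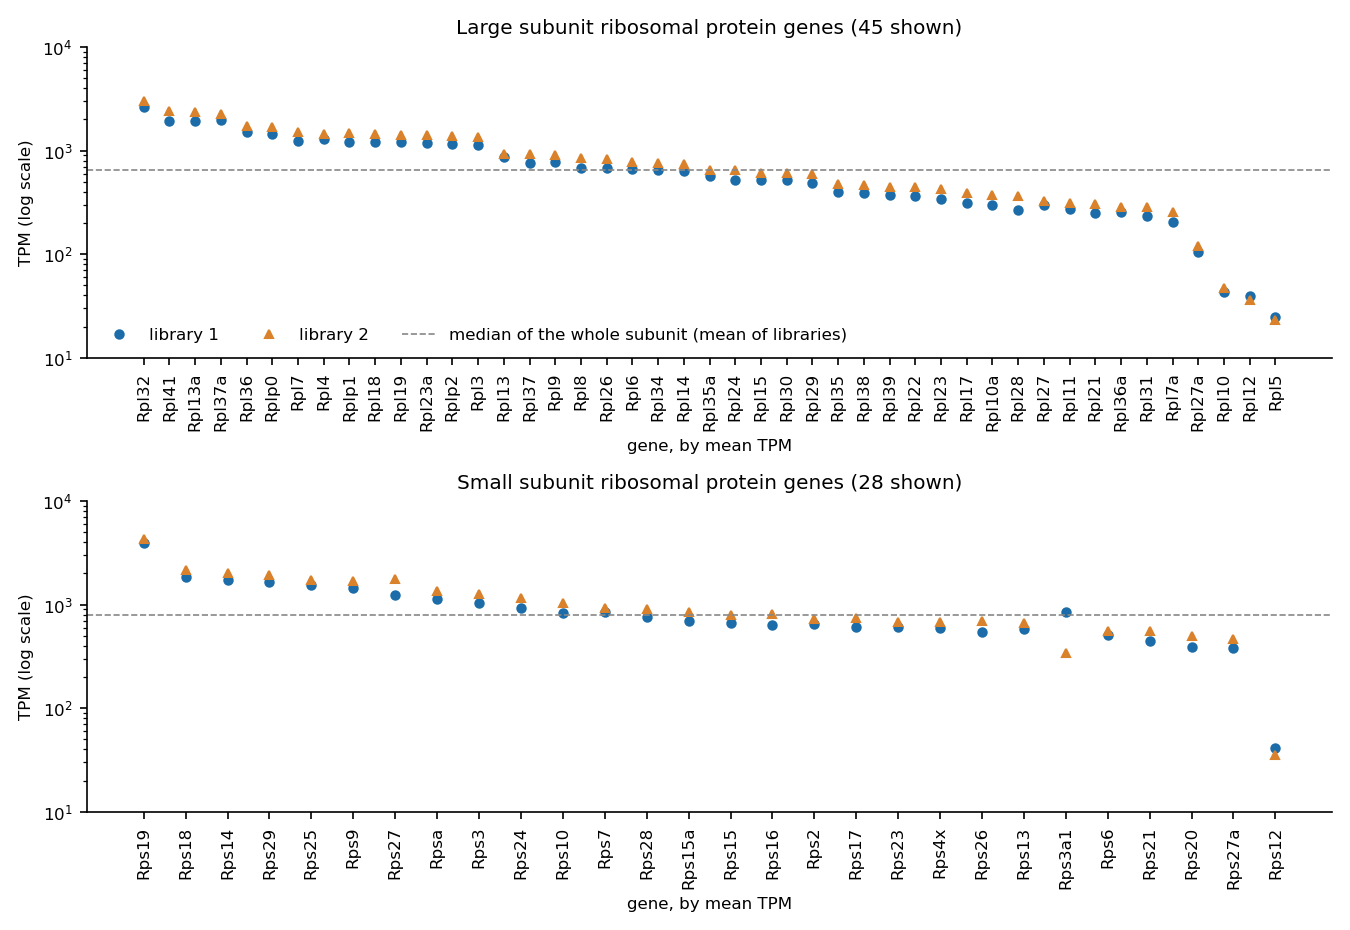
Level of 45 large subunit (top) and 28 small subunit (bottom) core genes in TPM on a log axis, with library 1 as circles, library 2 as triangles and the median of the whole subunit dashed. Rpl5, Rpl12, Rpl10 and Rps12 lie below 50 TPM in both libraries, while Rps19 lies at 3893 TPM or more.

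Each of these 5 low genes had far more reads on intronless copies than on itself. A copy was defined as a gene outside the 86 that shared 20 or more 50-base words with a member's coding transcripts, and that was either annotated as a pseudogene or had 50% or more of its own words in that member. There were 830 copies, 813 of them annotated as kinds of pseudogene, and each was assigned to its best-matching gene. The copies held 250325 estimated counts in library 1 and 298604 in library 2, or 22.5% and 23.5% of the counts of genes and copies together. The counts were unevenly spread: 40 and 43 copies had 1000 or more, while 616 and 596 had under 10. The 29 copies that lay wholly within a member's sequence, with no 50-base word of their own, were assigned 118940 and 132798 counts.

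Rpl5 itself had 493 and 436 estimated counts, while Gm15500, with the identical coding sequence shown above, had 10388 and 11408. Rpl12 had 845 and 862 counts, and its copy Gm10275 on chromosome 10, identical at all 495 coding bases, had 8215 and 10254. Rpl10 had 672 and 711 counts, against 7373 and 8316 for Rpl10-ps3, an intronless locus that M21 annotates as protein-coding. The pattern extended to genes of high level. Rpl13, which had 13493 and 13835 counts, shared all 633 coding bases with Gm12918, a processed pseudogene that had 36879 and 38733 counts. Rps6, the small subunit protein phosphorylated by S6 kinases, had 9001 and 9360 counts, and Rps6-ps4 had 17160 and 18784. Rpl35 had 4274 and 4925 counts, and Gm2000, which M21 annotates as protein-coding, had 9677 and 10856. For Rpl27 the 2 copies Gm11518 and Rpl27-ps3 were assigned the same 3632 counts each in library 1, with a posterior SD of about 1180 counts each. Counted in each library apart, 19 genes held under 50% of the counts of their family, meaning the gene plus its copies. The 2 sets of 19 were not the same, since Rps3a1 was under 50% in library 2 only.

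Genes with many copies differed in what they kept. Rpl7a had 87 copies, the highest number, and kept 92.1% and 93.5% of its family's counts. Rps2 had 60 copies and kept 94.4% and 94.1%, whereas Rps12 with 23 copies kept 15.0% and 10.4%. The median was 5 copies per gene, and 5 genes had none. Above 95% of family counts lay 40 genes in library 1 and 38 in library 2.

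With the TPM of copies added to their gene, the core genes stood closer together. Rpl5 then stood at 552 and 615 TPM, Rpl12 at 984 and 1259, Rpl10 at 748 and 840, Rps12 at 447 and 564, and Rpl27a at 820 and 1026. The SD of log2(TPM + 1) over core genes became 0.83 and 0.81. Rpl7a was then the lowest core gene, at 223 and 274 TPM. The core median rose to 1029 and 1222 TPM. Whether reads assigned to a copy came from a transcript of that copy was not tested.

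**Figure D2:**
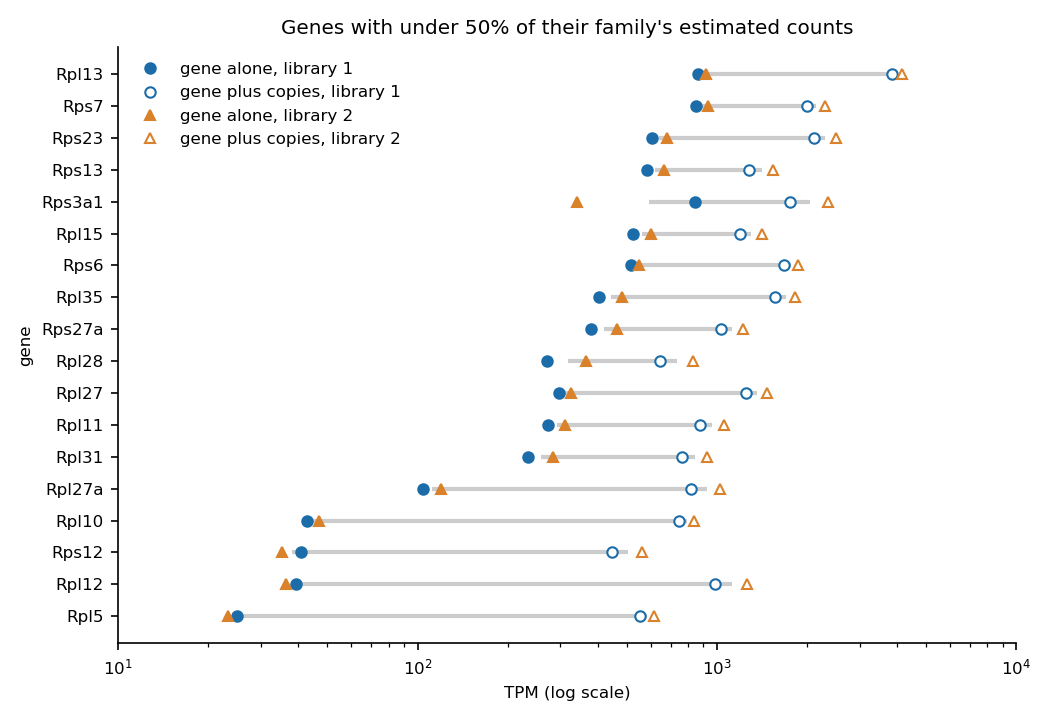
Level in TPM on a log axis of 18 of the 19 core genes that held under 50% of their family's estimated counts by the mean of the libraries. Filled symbols are the gene alone, open symbols the gene plus its copies, and grey lines join the means of the libraries. Rpl5 moves from under 25 TPM to 552 and 615 TPM.

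The paralogs fell into those expressed beside their parent and those at or near 0. Together the 8 held 42.1% and 37.4% of the summed TPM of paralogs and parents, of which Rps27rt made the greater part: without it the mean share was 14.8%. Rpl3l, a striated muscle form of Rpl3, had 2 and 0 estimated counts, while Rpl3 stood at 1142 and 1353 TPM. Rpl10l, a form of the male germ line, had 1 and 0 counts, and a count of 0 allows up to 3. Rpl39l, also known from the male germ line, had 28 and 23 counts and 1.80 and 2.14 TPM, which was 0.478% of the TPM of the pair with Rpl39 (375 and 445 TPM).

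Over all their transcripts, Rpl22l1 and Rpl36al stood at levels close to those of their parents. Rpl22, whose loss blocks the development of alpha-beta T cells, stood at 368 and 442 TPM, and Rpl22l1 at 257 and 303 TPM. Rpl22l1 held 41.1% and 40.7% of the pair's TPM (mean 40.9 ± 0.277%), and the coding sequences are 73.3% identical. However, transcripts not annotated as protein-coding took 93.8% and 88.2% of the TPM of Rpl22l1, against 3.85% and 2.38% for Rpl22. By these values Rpl22l1 held a smaller share of the TPM of the pair's coding transcripts than of all their transcripts. The size of that smaller share was not computed. Rpl36al, the autosomal partner of X-linked Rpl36a, stood at 323 and 373 TPM against 253 and 288 TPM. It held 56.3 ± 0.217% of the pair's TPM, and with the copies of Rpl36a added, the family of that parent stood at 438 and 536 TPM. The shares of these pairs differed between the libraries by less than 1 percentage point.

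Rpl7l1, related to Rpl7 and known from pre-ribosomes, stood at 116 and 103 TPM, with Rpl7 at 1247 and 1520 TPM. Its share of TPM was 8.50% in library 1 and 6.37% in library 2, but its mean share was 18.9% of the pair's estimated counts and 66.1% of its M4 counts. Rps27l, a target of the tumor suppressor p53, stood at 172 and 171 TPM and held 12.1% and 8.86% of its pair with Rps27. Rps27 itself had 1248 TPM in library 1 and 1761 in library 2. Rps27rt, the intronless locus identical to Rps27 over the coding bases shown above, stood at 2532 and 2545 TPM. It was thus assigned 67.0% and 59.1% of the pair, and 8.92% of its 50-base words occur in no other gene. In the M4 table, made by another counting on an older annotation, Rps27rt had 2 and 0 counts and Rps27 had 41 and 32. Rps27l had 275 and 263 counts there, which turned the direction: its mean share of the pair was 88.1% by M4 counts. The M4 shares of Rpl36al (92.6%) and Rpl39l (40.2%) were also far above their TPM shares. Rps19bp1 stood at 25.3 and 29.1 TPM, well below the core median.

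**Figure D3:**
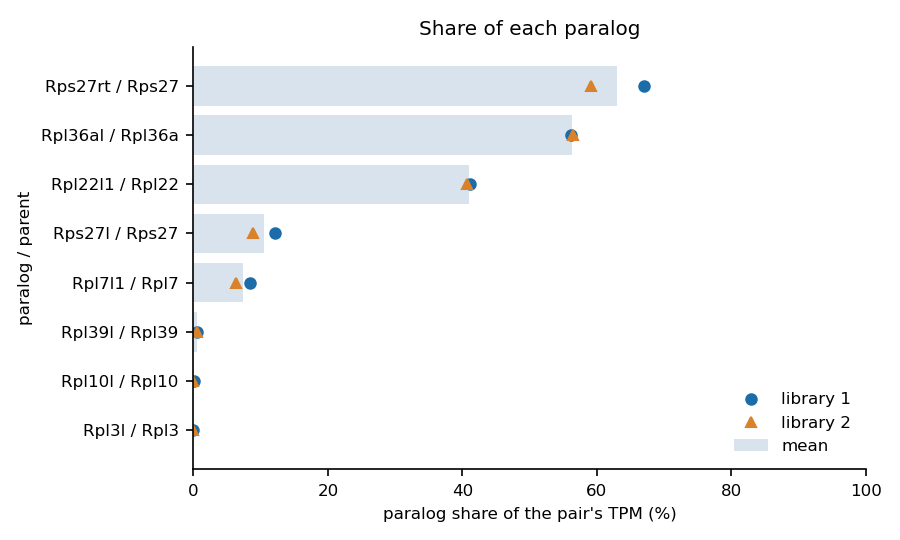
Share of each paralog in the summed TPM of paralog and parent, in percent, with library 1 as circles, library 2 as triangles and the mean as a bar. Rps27rt, Rpl36al and Rpl22l1 lie between 40.7% and 67.0%, and Rpl3l, Rpl10l and Rpl39l lie below 1%.

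Transcripts that M21 does not annotate as protein-coding took 24.6% of the genes' TPM in library 1 and 24.2% in library 2, beside 21.7% and 21.9% in other protein-coding genes. They numbered 268 of 505 transcripts. Retained-intron transcripts took 9.94 ± 0.177%, nonsense-mediated decay transcripts 7.73 ± 0.0477% and processed transcripts 6.74 ± 0.0449%. In 27 genes at least 1 such transcript took 20% or more of the gene's TPM in both libraries, and 31 transcripts met this limit. How often this occurs in other protein-coding genes was not tested, so these counts show no trait particular to ribosomal protein genes.

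In 6 genes a single non-coding transcript took over 90% of the gene's TPM in both libraries. The retained-intron transcript Rps26-202 took 97.3% and 98.0%, and the processed transcript Rpl35-203 took 97.2% and 97.8%. Rps23-202, Rps16-203, Rps13-206 and Rpl14-205 took between 90.8% and 95.1%. In 11 more genes the leading such transcript took over 50% in both libraries, among them Rpsa, Rpl15, Rps18, Rpl24, Rpl22l1, Rpl23, Rps20, Rpl37, Rps7 and Rpl21, with shares from 60.7% to 90.8%. Among the remaining 10 genes were Rps19, Rpl35a, Rpl11, Rpl27a, Rpl6, Rpl7, Rps12, Rpl5 and Rpl12, and in these 10 single transcripts took from 21.7% to 50.5%. Summed over a gene's non-coding transcripts, the share was over 50% in both libraries in 23 of the 73 genes that have any. Among these were Rpl5 (88.6% and 92.0%), Rpl12 (87.6% and 91.2%) and Rpl11 (73.8% and 71.8%). The non-coding transcripts overlap the coding ones: 92.8% of the 50-base words of Rps18-209, and 66.0% of those of Rps26-202, also lie in coding transcripts of the same gene. Whether the gene's reads came from the coding or the non-coding form was not tested, since no file used here gives counts per splice junction.

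In the M4 table the same genes had far fewer counts. It holds whole-number counts from genome alignments. How duplicate reads and reads that fit several places were counted there is not stated, so what the ratio of M4 to M21 measures is not known here. The M4 count was a median of 1.92% of the M21 estimated count in library 1 and 1.59% in library 2 over the 84 genes with 10 or more M21 counts. In other protein-coding genes the medians were 44.5% and 45.5%. The ratio was lower in the ribosomal protein genes at like M21 counts too, but from 1000 counts up the gap narrowed with the count. From 100 to 1000 counts, over 5 ribosomal protein genes, the medians were 14.3% and 10.8% against 52.7% and 52.5%. From 1000 to 10000 counts the medians were 1.99% and 1.67% for the ribosomal protein genes, against 41.5% and 42.2% for others. From 10000 to 30000 counts they were 1.16% and 1.14% against 18.1% and 17.5%. At 30000 or more, over 4 and 5 ribosomal protein genes, they were 1.64% and 1.15% against 3.70% and 2.96%. The 86 genes took 0.210% and 0.225% of M4 counts, against 2.49% and 3.03% of M21 estimated counts.

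Rps27rt had the lowest such ratio, and Rpsa, Rps29, Rpl23a and Rpl19 followed. The M21 tables gave Rpsa 24565 and 28716 estimated counts, whereas the M4 tables gave it 33 and 33. Rps29 went from 11825 and 13401 on M21 to 16 and 17 on M4. Rpl23a had 10 and 30 counts on M4, and Rpl19 had 48 and 44, against 17605 and 19806 for Rpl19 on M21. Genes with more letters of their own tended to keep more, with exceptions. Where 90% or more of a gene's 50-base words occur in no other gene, a cut not planned beforehand, the median ratio was 11.0%. Rpl39l, Rpl7l1 and Rps19bp1, which are not core genes, are among those genes. Rpsa and Rps29, among the lowest ratios, have 66.7% and 64.2% of their words in no other gene. Rps19bp1, which has no copy, had M4 counts of 204 and 209 against 415 and 454 on M21. Across 84 genes the ratio and the percentage of words in no other gene had a Spearman rho of 0.361 in library 1 and 0.368 in library 2. This is a description across genes that share their libraries. Of the 830 copies, 40 were matched in the M4 table and held 151 and 189 counts.

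**Figure D4:**
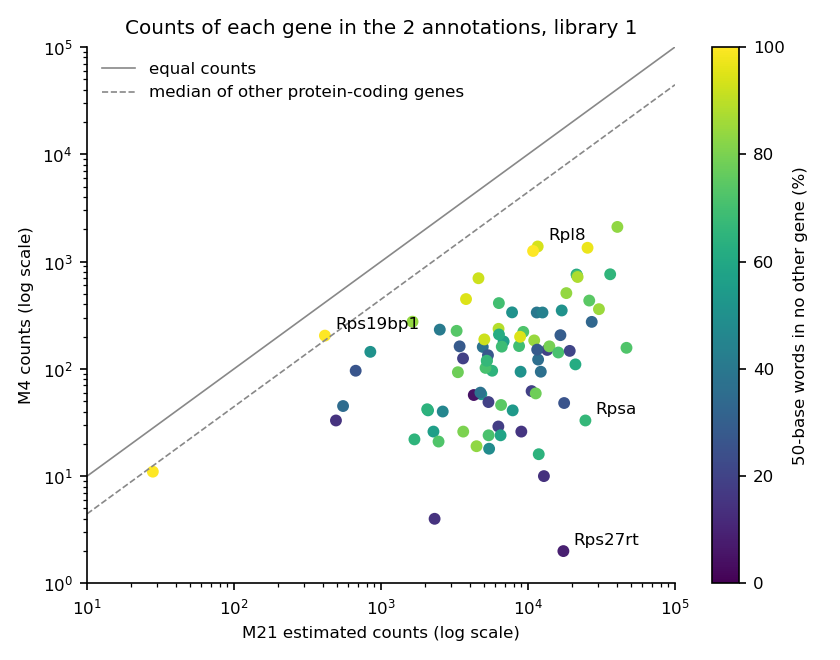
M4 counts against M21 estimated counts on log axes for the 84 genes with 10 or more M21 counts in library 1, coloured by the percentage of the gene's 50-base words found in no other gene. The dashed line marks the median of other protein-coding genes (44.5%), and nearly all points lie below it, Rps27rt and Rpsa far below.

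Between the libraries nearly all ribosomal protein genes were higher in library 2, by a similar small amount. An exact two-sided binomial test on each gene's rounded counts, scaled by edgeR's TMM factors and adjusted over 18746 genes, called 79 of 84 tested genes (94.0%), against 36.5% of all genes tested. Of these, 77 were higher in library 2, a direction in which 17.2% of all genes were called, and 2 were higher in library 1, against 19.2%. The test covers counting error only and compares these 2 technical libraries, not conditions. edgeR's exact test with a common dispersion, which allows for a coefficient of variation of 15.1%, called 1 of the 84, against 2.98% of all genes. That dispersion was estimated from these same 2 libraries taken as 1 group, so the differences under test are part of it. The median log2 ratio of library 2 over library 1 was 0.30, a 1.23-fold difference, beside 0.00057 over all genes tested. It was above 0 for 79 genes and below 0 for 5, and the quartiles were 0.26 and 0.36. Centred on genes of like length, the median was 0.19.

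Both subunits shared this offset. The median log2 ratio was 0.31 over 46 large subunit genes and 0.32 over 31 small subunit genes. The stalk genes Rplp0, Rplp1 and Rplp2 had log2 ratios of 0.31, 0.37 and 0.31. Rps27 had the highest ratio, 0.57, with 7861 and 10785 estimated counts, but its M4 counts of 41 and 32 gave -0.27. Rpl28 followed at 0.49 with 1686 and 2186 counts, and Rps20 at 0.45 with 5042 and 6365. Rps27rt, identical to Rps27 over the coding bases, had a ratio of only 0.079. Its share of the estimated counts of that pair was 68.9% in library 1 and 61.1% in library 2. The 5 genes that the binomial test did not call were Rpl5, Rpl12, Rps12, Rpl39l and Rps27l, of which the first 3 are among the low genes described above. The 6 paralogs tested had a median of 0.077, and 3 of them were called higher in library 2. With M4 counts, 4 of 83 genes were called, against 14.4% of all genes: 3 higher in library 2, against 4.62%, and 1 higher in library 1, against 9.76%. Their median was 0.10, and 16 of the 83 had the opposite sign to that on M21, 13 of them falling below 0 on M4.

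Rps3a1 was the exception. It had 16608 estimated counts in library 1 and 6470 in library 2, a log2 ratio of -1.25, and was the only gene of the 86 that edgeR's exact test called (adjusted p = 0.0061). Its M4 counts were 206 and 45, and edgeR's exact test called these too (adjusted p = 1.74e-12), as it did 2.4% of genes on M4. The pseudogenes shown above moved the other way: Rps3a2 had 5806 and 12285 counts, and Rps3a3 had 8344 and 18318. Rps3a1 thus held 53.8% of its family's counts in library 1 and 17.4% in library 2. Summed with its 7 copies, the log2 ratio was 0.38, within the range of the other genes. The posterior SD of the estimate for Rps3a1 was 150 and 120 counts. Why Rps3a1 and these pseudogenes moved in opposite directions was not tested. Rpl7l1 was the other gene called higher in library 1, with 4600 and 3916 counts and a log2 ratio of -0.12.

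With copies added, the ratios of core genes lay within a narrow range, from 0.18 to 0.42 in the large and from 0.22 to 0.58 in the small subunit. The binomial test then called 82 of 84 genes, against 36.5% of all genes, 81 of them higher in library 2, against 17.3%, and 1 higher in library 1, Rpl7l1, against 19.3%. edgeR's exact test called 0 of 84, against 2.99% of all genes, and 0 had an unadjusted p under 0.05. The medians with copies were 0.33 for the large and 0.32 for the small subunit.

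**Figure D5:**
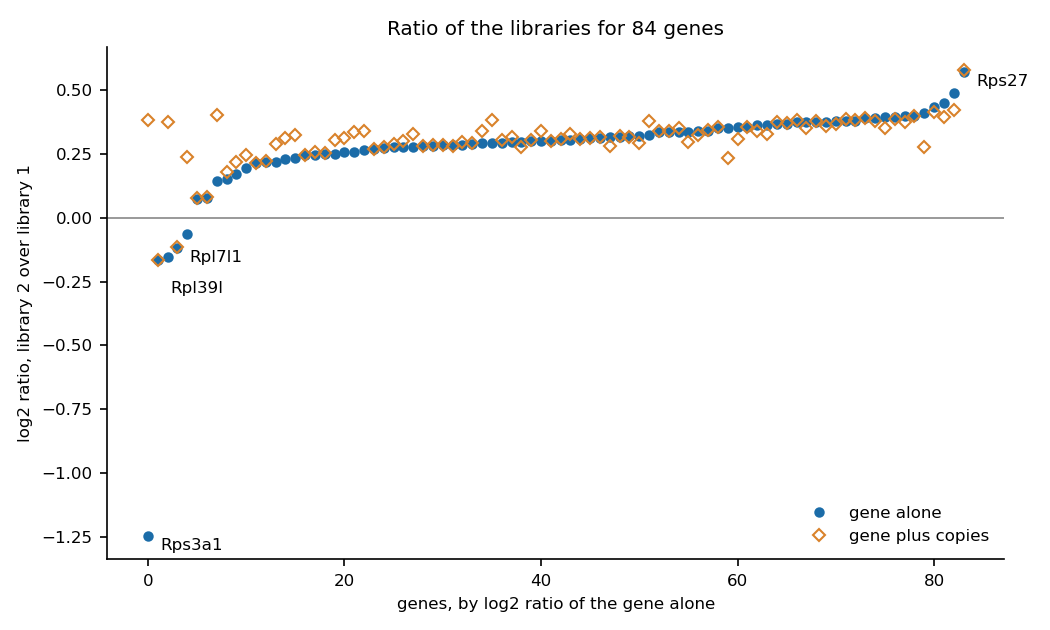
Log2 ratio of library 2 over library 1 for the 84 genes tested, in order of the ratio of the gene alone (circles), with the ratio of the gene plus its copies as open diamonds. Rps3a1 alone lies at -1.25, and with its copies at 0.38 among the other genes.

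Genes tied to the same pathway were read from lists. The ribosomal protein genes Fau and Rack1, which lie outside the symbol rule, stood at 726 ± 88.8 and 537 ± 83.6 TPM, and the binomial test called both higher in library 2. Of 16 other TOP messenger RNAs, which encode elongation and initiation factors and related proteins, 15 were called, all 15 higher in library 2, against 17.2% of all genes, and the median log2 ratio was 0.19. Among them Eef1a1, the main elongation factor, stood at 3537 and 4099 TPM with a ratio of 0.25. Pabpc1, the poly(A)-binding protein, had 0.35, and Eif4b, at 85.1 and 80.8 TPM, had 0.0056 and was not called. edgeR's exact test called 0 of these 16 genes, against 2.98% of all genes.

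The remaining lists differed from each other in direction. None of the assembly factors, regulators or mitochondrial genes below was called by edgeR's exact test, against 2.98% of all genes. Over all genes the binomial test called 17.2% higher in library 2 and 19.2% in library 1. Of 31 ribosome assembly factors the test called 15, with 6 above 0 and 9 below, and their log2 ratios had a median of -0.05. Of 11 tested regulators of ribosomal protein supply 1 was called higher in library 2, Yy1, and 4 in library 1: Myc, Mtor, Rptor and Znhit6. Myc, a transcription factor that drives ribosome production, stood at 237 and 202 TPM, with a ratio of -0.17. Larp1 stood at 92.8 and 93.1 TPM and was not called. Of 78 mitochondrial ribosomal protein genes, which serve the organelle's own ribosome, 21 were called higher in library 2 and 3 in library 1, with a median of 0.07. They stood far lower in level, at a median of 65.9 and 65.6 TPM. Of 294 pseudogene rows with a ribosomal protein symbol, 67 were detected, and of 106 tested 46 were called higher in library 2 and 8 in library 1. The median of their log2 ratios was 0.37, above that of the ribosomal protein genes. edgeR's exact test called 6 of the 106, against 2.98% of all genes.

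The start sites of the core genes were read for the TOP motif, and 30 bases around the annotated start follow for 6 genes with a run there, Rps27 and Rps27rt among them. The windows run 5′ to 3′ on the gene's strand, from 10 bases before the start to 20 from it, and come from RefSeq on GRCm38.p6. Capitals mark the motif CTTTC, its variant CTTCC or the shifted form TTTCC where it starts within 5 bases of the start, and these overlap each other.
Rps10, chr17:27635225-27635254, minus strand: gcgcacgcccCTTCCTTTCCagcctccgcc
Rpl15, chr14:18270967-18270996, minus strand: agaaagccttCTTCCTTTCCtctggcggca
Rpl38, chr11:114668570-114668599, plus strand: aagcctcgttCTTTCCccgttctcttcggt
Rplp2, chr7:141447641-141447670, plus strand: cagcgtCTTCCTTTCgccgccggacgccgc
Rps27, chr3:90213629-90213658, minus strand: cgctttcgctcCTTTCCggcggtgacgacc
Rps27rt, chr9:114982720-114982749, minus strand: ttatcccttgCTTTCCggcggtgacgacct

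Promoters were found for 57 of the 77 core genes, 67 promoters in all. At least 1 of the 3 pyrimidine motifs, on the transcript strand, began within 5 bases of the start in 16 of these 57 genes and in 25.4% of core promoters, against 5.92% of 32851 promoters. CCGGAAG, the core of ETS factor sites such as that of Gabpa, lay on either strand of the 300-base window in 24 of 57 genes and 37.3% of core promoters, against 8.86% of all. AAGATGGC, the core of the Yy1 site, lay in 5 of 57 genes and 10.4% of core promoters, against 2.75% of all. A match is a description of these letters, and the annotated start decides which letters lie in the window.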

How the data were processed

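Levels were taken from 2 libraries of polyA-selected RNA. Per the file headers, the authors deposited gene and transcript tables on GENCODE M21 with estimated counts (expected counts, shared reads divided by a model), TPM, FPKM, posterior mean TPM and the posterior standard deviation of the count. The authors also deposited whole-number read counts on GENCODE M4 without a header. The sources used here do not give the quantifier, aligner, strandedness or versions. In the deposited values effective length was length less 49 bases in 100% of transcripts, so the word length for copies was set to 50 bases, on both strands. Gene symbols, biotypes and sequences came from GENCODE M21 on GRCm38, and start windows from RefSeq on GRCm38.p6, which matched 66 of 86 genes. Rows that name no annotated gene, 0.197% and 0.212% of estimated counts, stayed out of totals and tests.

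Estimated counts were rounded and tested per gene, over 18746 genes with a summed count of 10 or more, by an exact two-sided binomial test on TMM-scaled library sizes with Benjamini-Hochberg adjustment at 0.05. With 1 library a side no residual degrees of freedom remain for the quasi-likelihood test of edgeR 4.0.16, so its exact test with a common dispersion was the alternative. The dispersion came from the 2 libraries taken as 1 group and is no independent measure of technical spread. Log2 ratios used a prior count of 0.5, and SDs of levels log2(TPM + 1). The binomial test covers counting error only, and PCR copies are not independent molecules. DESeq2 1.42.0 gave alternative size factors. Scripts ran in R 4.3.3 and Python 3.11.15.

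The genes and lists were chosen with earlier results of these data known, and the definition of copies was set after the data had been seen. Named with values were the 5 highest and 5 lowest core genes, all paralogs with their parents, the stalk genes, Rpsa, Rps27a, X-linked genes, those with a non-coding transcript at 20% or more of TPM, the 5 lowest M4 to M21 ratios, those called higher in library 1 and the 3 highest log2 ratios. Genes named for their copies were chosen after their values were seen. Some genes under these rules are not reported here.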

Additional observations from a re-analysis of the deposited data

Results flagged for a closer look

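Rps4l (chr6:148354656-148355598), an autosomal relative of X-linked Rps4x, is annotated in M21 as a transcribed processed pseudogene and so lay outside the 86 genes. It had 108 estimated counts in library 1 and 200.03 in library 2, above the 3 that a count of 0 allows, at 6.23 and 11.6 TPM. Its M4 counts were 84 and 142. The log2 ratio of library 2 over library 1 was 1.00, which the exact binomial test called (adjusted p = 5.13e-08) and edgeR's exact test did not (adjusted p = 0.11). With M4 counts edgeR's exact test called it (adjusted p = 0.033).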

How the results depend on the processing

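The genes' mean share of TPM (7.89%) was 2.76% as a share of estimated counts, 0.217% of M4 counts, 9.03% of the TPM of protein-coding genes alone, and 10.7% with copies added, an alternative chosen after seeing the data. The core median (714 TPM) was 446 as FPKM and 1126 TPM with copies, and the SD of log2(TPM + 1) fell from 1.42 to 0.82 with copies. The summed share of the paralogs (39.8%) was 29.98% by estimated counts, 51.3% by M4 counts and 14.8% without Rps27rt. The non-coding share (24.4%) was 22.3% by estimated counts. The median ratio of M4 to M21 counts (1.75%) was 11.0% in genes with 90% or more of their words in no other gene, an alternative not planned beforehand. The 79 calls between libraries, of 84 genes tested, stood against 36.5% of all genes. They became 4 of 83 with M4 counts, against 14.4%, and 1 of 84 with edgeR's exact test, against 2.98%. The median log2 ratio (0.30) was 0.099 with M4 counts and 0.19 centred by gene length. Over all genes tested, the sign of the log2 ratio changed for 16 of 83 with M4 counts and for 3 of 84 with copies added (Rpl5, Rps12 and Rps3a1). Of the genes named for their ratio these were Rpl7l1 (0.010) and Rps27 (-0.27) with M4 counts and Rps3a1 (0.38) with copies added; the cause was not tested. Of the remaining alternatives to these main results, 25 moved by no more than 1 SD between the libraries or, for counts and the median log2 ratio, by less than 1.5 times.

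Without replicate 1 or without replicate 2 the share of TPM ranged from 7.28% to 8.49%, the core median from 660 to 768 TPM, the SD from 1.39 to 1.44, the paralog share from 37.4% to 42.1%, the non-coding share from 24.2% to 24.6% and the M4 to M21 ratio from 1.59% to 1.92%, with 84 genes detected in each; the mean of 2 libraries always lies between them, so this is no check of stability. The comparison of libraries needs both. No paired analysis was possible because there was 1 group. Depth limits Rpl3l and Rpl10l, which had 3 counts or fewer in all.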
